A study of Homo sapiens with 4 samples.

Results

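miR-103 and miR-107 are sister microRNAs (miRNAs), cut from hairpins in introns of the PANK genes. The rows named hsa-miR-103 and hsa-miR-107 were taken, with names carrying a star left out, which gave 2 of the 1100 mature miRNA names in each library. The pair was picked as known regulators of DICER1 and was also selected on the high level of miR-103 in MDA-MB-231 cells, so the values in that library are a description. Small RNA (from 15 or 17 nt, both of which the labels state, up to 52 nt) was sequenced from 4 groups with 1 library each, so differences have no replicates behind them and are given without p-values. MDA-MB-231 is a metastatic human breast cancer line of mesenchymal type. It was grown in DMEM with 10% fetal bovine serum and gave 1 exosome and 1 cell library. MCF-10A, a non-transformed mammary epithelial line, was grown in DMEM/F12 with 20 ng/ml EGF, 10 µg/ml insulin, 0.5 µg/ml hydrocortisone, 0.1 µg/ml cholera toxin and 5% horse serum, and likewise gave 1 exosome and 1 cell library. Exosomes are membrane vesicles, shed into the medium, with RNA inside. Levels are given on the deposited scale, the log2 of 1 plus the reads per 10000000 assigned to miRNAs, on which 0 stands for no read.

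A miRNA guides silencing complexes to messenger RNAs that pair with its seed, the bases near its 5′ end, and lowers their output. DICER1 is the enzyme that cuts miRNA hairpins into mature miRNAs, and miR-103 and miR-107 are known to repress it, which in breast cancer cells has been tied to less miR-200, loss of epithelial traits and metastasis. The same miRNAs are known to dampen insulin signalling through caveolin-1, and their host genes encode pantothenate kinases, which start the synthesis of coenzyme A.

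The mature sequences, from RefSeq (GRCh38.p14), are shown because the pair shares its whole seed (bases 2 to 8, in capitals).
miR-103: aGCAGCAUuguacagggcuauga
miR-107: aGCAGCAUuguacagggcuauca
Of the 2370 mature human names in that table, 2 had this seed (0.0844%), namely these 2. Counted from 1 at the 5′ end, the mature forms of 23 bases differ by a single substitution, G22C from miR-103 to miR-107, marked below in capitals.
miR-103: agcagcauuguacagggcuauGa
miR-107: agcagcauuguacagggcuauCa
A read that ends at base 21 or earlier therefore matches both names. How such reads were assigned was not given in the sources used here, so the split between the names is uncertain to that extent.

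miR-103 is encoded at 2 places and miR-107 at 1, and the hairpins below, from RefSeq, show the mature miRNA in capitals in the 3′ arm.
MIR103A1: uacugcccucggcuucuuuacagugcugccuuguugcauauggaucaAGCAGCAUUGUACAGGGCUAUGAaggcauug
MIR103A2: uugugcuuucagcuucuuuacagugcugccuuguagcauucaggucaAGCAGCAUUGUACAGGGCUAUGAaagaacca
MIR107: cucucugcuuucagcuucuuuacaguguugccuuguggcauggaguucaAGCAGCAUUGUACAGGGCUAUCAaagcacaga
In GRCh38 (GENCODE release 29), MIR103A1 lies at chr5:168560896-168560973 on the minus strand within PANK3, MIR103A2 at chr20:3917494-3917571 on the plus strand within PANK2, and MIR107 at chr10:89592747-89592827 on the minus strand within PANK1. Each hairpin lay on its host's strand, overlapped 0 host exons and fell in intron 5 of the host's principal transcript of 7 exons. The nearest exon on the host's 5′ side was 419, 443 and 369 bases away in that order. Aligned over their whole length, the MIR103A2 and MIR107 hairpins shared 69 bases, with 9 mismatches and 3 gaps. MIR103A1 shared 63 bases with MIR103A2 and 64 with MIR107. Because the mature miR-103 of both places is identical, its reads cannot be split between PANK3 and PANK2.

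The libraries held 1533546 (MDA-MB-231 exosome), 7340453 (MDA-MB-231 cell), 1254422 (MCF-10A exosome) and 10930126 (labelled MCF-10A cell) miRNA reads, recovered from the deposited values. The last library stood apart by miRNAs of other tissues. A list of 56 such names (muscle, fibroblast, endothelium, blood, liver, nerve, placenta and others) held 51.2% of its reads, against 2.86%, 0.409% and 0.157% in the others, and 0 of the 56 were at 0 there, against 20, 22 and 29. Its defining names included miR-1 of muscle at 20.13, beside 10.72, 3.40 and 4.08, and miR-124 of neurons at 13.54, beside 0 in each of the others. MDA-MB-231 exosomes also held such names, with 30 of the 56 at 10 or more reads, among them miR-143 of fibroblasts and smooth muscle at 15.80, miR-122 of liver at 14.79 and miR-451 of red blood cells at 14.72. Of the 35 past the minimum in either MDA-MB-231 library, 25 were higher by 4-fold in these exosomes than in their cells, 3 lower and 7 within. Their median log2 difference was 5, beside 22.2% of 499 names higher by 4-fold and a median of −0.09 over all names. Names at 0 in either library entered by their value in the other alone, which fixed their direction. The epithelial markers miR-200c and miR-205 were present in the library labelled MCF-10A cell (15.38 and 12.58) and in MCF-10A exosomes (18.52 and 13.56). They were low in both MDA-MB-231 libraries (at most 9.78 and 3.81). The last of the 4 libraries is called the library labelled MCF-10A cell below. Values listed without library names follow the order in which the read totals were given. The part of this content in any result that uses these libraries was not tested, and in these bulk libraries fewer cells of a type and less RNA per cell cannot be told apart.

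miR-103 was an abundant miRNA in every library, while miR-107 stood far below it in 3 of them and was abundant in the fourth. miR-103 stood at 16.21, 17.34, 15.45 and 15.07, highest in MDA-MB-231 cells and lowest in the library labelled MCF-10A cell. These levels lay within a 4.82-fold range, and 69 of the 209 names with at least 50 reads per 10000000 in all libraries had a smaller range. miR-107 stood at 8.41, 9.99, 8 and 14.04. Its range was 66.1-fold, wider than that of 189 of the 209 names, and it came from the library labelled MCF-10A cell, where its level was higher than in the other 3.

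In shares of all miRNA reads, miR-103 took 0.758% (Wilson 95% interval 0.744 to 0.772), 1.66% (1.65 to 1.67), 0.448% (0.436 to 0.460) and 0.344% (0.341 to 0.348). No neighbours in this order had overlapping counting intervals. miR-107 took 0.00339% (0.00259 to 0.00445, 52 reads), 0.0102% (0.00946 to 0.0109, 746 reads), 0.00255% (0.00181 to 0.00360, 32 reads) and 0.169% (0.166 to 0.171, 18423 reads). The intervals of miR-107 in the exosomes of the lines overlapped, so its order between them was not resolved at this depth. All intervals cover counting error alone: they leave out the spread between cultures, and PCR copies counted without molecular identifiers are not separate molecules.

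miR-103 ranked 21, 9, 18 and 45 among the names. Its rank of 9 in MDA-MB-231 cells is part of why the pair was chosen. There it lay just under miR-30d (17.67), miR-378 (17.91) and miR-24 (18.36) and just above miR-27a (17.25), miR-151-3p (17.08) and miR-146a (16.87). The nearest names in MDA-MB-231 exosomes were miR-126, miR-30e and miR-93 above it (16.23 to 16.36) and miR-148a, miR-143 and miR-10a below (15.74 to 15.86). MCF-10A exosomes placed it under miR-1308, miR-20a and miR-24 (15.71 to 16.31), level with miR-1979 and above miR-27a and miR-30e (15.38 and 15.35). Its neighbours in the library labelled MCF-10A cell were miR-378, miR-130a and miR-22 above (15.10 to 15.26) and miR-148a, miR-186 and the leukocyte miR-142-3p below (14.83 to 14.92). Among these, miR-378, miR-30e, miR-151-3p, miR-126, miR-93 and miR-186 are also encoded in introns of protein-coding genes.

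miR-107 ranked 191 of 508 names above 0, 125 of 566, 182 of 436 and 66 of 794. Its neighbours changed with it. In MDA-MB-231 cells they were miR-454, miR-361-5p and miR-15b* above (10.03 to 10.06) and miR-374a, miR-185 and miR-106b* below (9.88 to 9.96). In MDA-MB-231 exosomes they were miR-96, miR-577 and miR-760 (8.46 to 8.57) and miR-301a, miR-330-3p and miR-125a-3p (8.38 to 8.41). MCF-10A exosomes had miR-193a-5p, miR-4284 and miR-374a above it (8.04 to 8.09) and miR-135b*, miR-548d-5p and miR-92b* at its own level. Its place in the library labelled MCF-10A cell was between miR-152, the muscle miR-206 and miR-125a-5p (14.07 to 14.13) and the placental miR-517a and miR-517b with miR-92a (14 each).

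**Figure D1:**
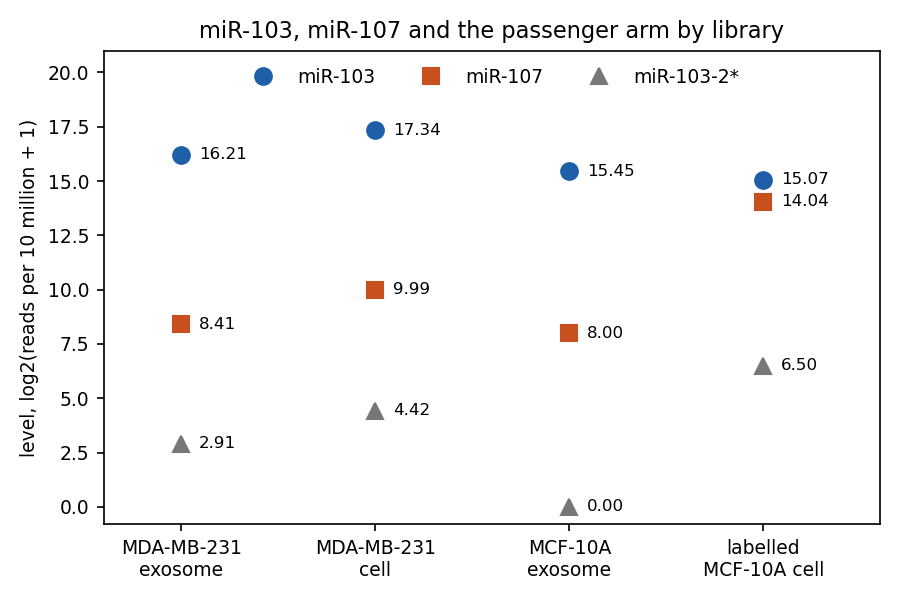
Level of miR-103 (circles), miR-107 (squares) and the passenger arm miR-103-2* (triangles) in each of the 4 libraries, 1 point per library, as log2 of reads per 10000000 plus 1. miR-103 lies between 15.07 and 17.34 throughout, while miR-107 lies between 8 and 9.99 in 3 libraries and at 14.04 in the library labelled MCF-10A cell.

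The ratio within the pair does not depend on depth or scaling. For each miR-107 read there were 223 miR-103 reads in MDA-MB-231 exosomes (exact binomial 95% interval 170 to 299), 163 in the cells of that line (152 to 176), 175.5 in MCF-10A exosomes (124 to 257) and 2.04 in the last library (2.01 to 2.08). miR-107 thus made up 0.446% (Wilson 95% interval 0.340 to 0.584), 0.608% (0.566 to 0.653) and 0.567% (0.402 to 0.799) of the pair in the first 3 libraries and 32.9% (32.5 to 33.3) in the last. The odds of miR-107 against miR-103 were 80.0-fold higher in the library labelled MCF-10A cell than in MDA-MB-231 cells (exact conditional 95% interval 74.3 to 86.3), 109-fold higher than in the exosomes of that line (83.3 to 147) and 85.9-fold higher than in MCF-10A exosomes (60.8 to 126). Among the other 3 libraries the odds differed little. They were 1.37-fold higher in MDA-MB-231 cells than exosomes (1.03 to 1.85), while the interval between the exosomes of the lines (0.792 to 2.02 for MCF-10A over MDA-MB-231) included no difference.

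**Figure D2:**
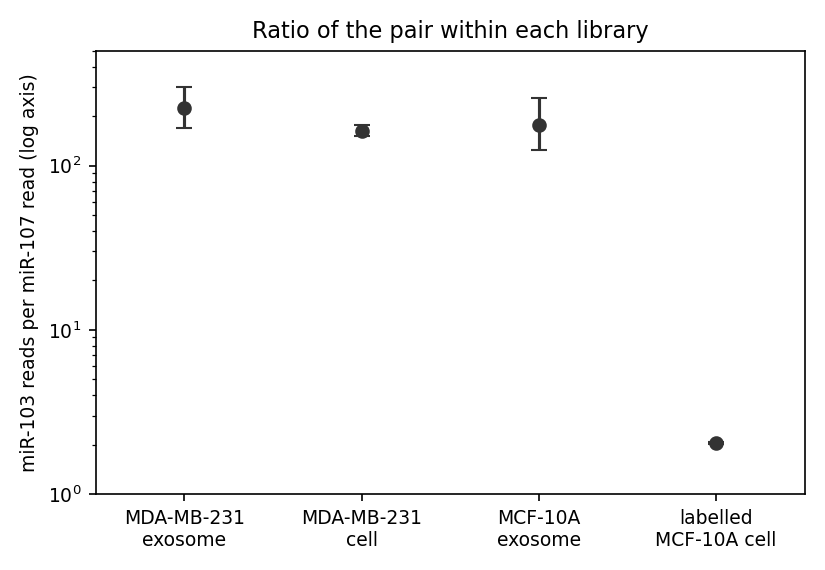
miR-103 reads for each miR-107 read in each library, on a log axis, with exact binomial 95% counting intervals. The first 3 libraries lie between 163 and 223, and the library labelled MCF-10A cell lies at 2.04.

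Taken as 1 quantity, the pair held 0.761%, 1.67%, 0.450% and 0.513% of miRNA reads. The share of reads with this seed was therefore highest in MDA-MB-231 cells. Nearly all of it there was miR-103 (121875 of 122621 reads), whose level in those cells the rule used, so this is a description. Between the MCF-10A libraries the sum differed by 1.14-fold on the deposited scale, higher in the cell library (1.11 to 1.17), while miR-107 went from 0.567% to 32.9% of it. That direction depended on scaling. The log2 difference of the sum, exosome minus cell, was −0.19 as deposited, −1.22 over a total without the other-tissue names, and 0.0083, 0.22, 0.69 and 2.56 under TMM scaling, without miR-21, under median centring and under upper-quartile scaling.

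The first comparison set the exosomes of the cancer line against those of the non-transformed line. miR-103 was 1.69-fold higher in MDA-MB-231 exosomes (95% counting interval 1.64 to 1.75), a log2 difference of 0.76. miR-107 was 1.33-fold higher there, but its interval of 0.840 to 2.13 included no difference, and its log2 difference of 0.41 turned to −0.28 under upper-quartile scaling, which also brought miR-103 to 0.0717. Over a total without the other-tissue names the differences were 0.80 and 0.45. Neither reached the 4-fold size used to call a difference, which 48.3% of the 505 names past the minimum of 10 reads per 10000000 did. The median log2 difference of those names was 0.59, so both lay near the middle of all names, with 234 names above miR-103 and 243 below miR-107.

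In the cell libraries the members went opposite ways. MDA-MB-231 cells held 4.82-fold more miR-103 (4.77 to 4.88), a log2 difference of 2.27. A 4-fold higher level was found for 17.4% of the 665 names, the rule used this level, and over a total without the other-tissue names the difference was 1.24, under the 4-fold size. MDA-MB-231 cells held 16.6-fold less miR-107 (15.4 to 17.9), with a log2 difference of −4.05, beside 54.3% of names that were lower by 4-fold and 71.7% that differed by 4-fold in either direction. The median over all names was −2.83, so relative to it miR-103 lay at 5.10 and miR-107 at −1.22. With MCF-10A exosomes in place of the library labelled MCF-10A cell, a setting added after the data were seen that also crosses fractions, miR-103 remained higher in MDA-MB-231 cells by 1.89 but miR-107 turned from lower to higher, by 1.99. Under upper-quartile scaling the difference was 4.69 for miR-103 and −1.63 for miR-107, which ends the 4-fold call of miR-107.

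Within MDA-MB-231, the exosomes held less of both members than the cells. The rule used the level of miR-103 in these cells, so its lower value in exosomes is a description. miR-103 was 2.19-fold lower in exosomes (2.15 to 2.23), a log2 difference of −1.13, and miR-107 was 3.0-fold lower (2.26 to 4.05), a difference of −1.58. These intervals did not overlap 1, but neither difference reached 4-fold in either direction, a size passed by 35.7% of the 499 names. The median over all names was −0.09, with 360 names above miR-103 and 402 above miR-107. Upper-quartile scaling took miR-107 to −2.04, just past the 4-fold size, and on the deposited scale 22.2% of names were higher and 13.4% lower by 4-fold.

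Within MCF-10A, miR-103 was close to level between the libraries and miR-107 was far lower in exosomes. miR-103 was 1.30-fold higher in exosomes (1.26 to 1.34), a log2 difference of 0.38, which turned to −0.65 over a total without the other-tissue names and rose to 3.13 under upper-quartile scaling. miR-107 was 66.1-fold lower in exosomes (46.8 to 96.6), a difference of −6.04, and of the 661 names 57.2% were lower by 4-fold, 15.4% higher and 72.6% either. It stayed past the 4-fold size under every scaling tried, from −3.29 to −7.07. The median over all names was −3.27, with 167 names above miR-103 and 191 below miR-107. Between the lines, the exosome-to-cell difference in MDA-MB-231 minus that in MCF-10A was −1.51 for miR-103 and 4.46 for miR-107, beside a median of 2.91 over 701 names. Both values use the library labelled MCF-10A cell.

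**Figure D3:**
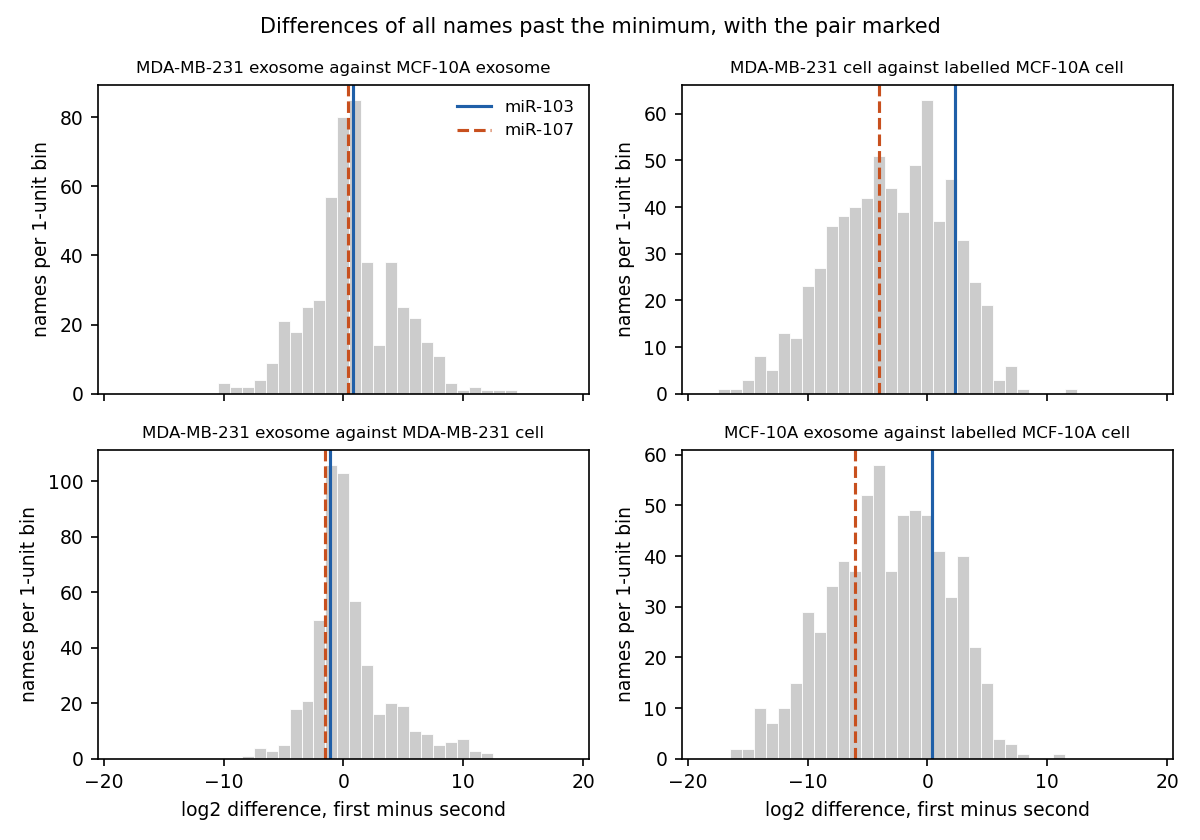
Histograms of the log2 difference between libraries (x axis, bins of 1 unit) over all names past the minimum, in the 4 comparisons, with miR-103 as a solid and miR-107 as a dashed line. The lines lie close together in the comparisons without the library labelled MCF-10A cell (0.76 and 0.41, −1.13 and −1.58) and far apart in those with it (2.27 and −4.05, 0.38 and −6.04).

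Of 3 other names listed for the same genes, 2 were among the deposited names, and both were rare. The remaining name had no deposited value, so its level is not known. The passenger arm miR-103-2*, cut from the 5′ side of the MIR103A2 hairpin (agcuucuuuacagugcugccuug), is named for the PANK2 place. From its second base on, the same sequence also stands in the MIR103A1 hairpin printed above. Reads without the first base, or matched with a mismatch, thus fit PANK3 as well. The MIR107 hairpin holds the sequence of this arm with 1 base changed, so reads matched with a mismatch also fit PANK1. How the reads divide among these places was not tested. The name miR-103-2* had 1, 15, 0 and 98 reads. The level of this arm was thus highest where miR-103 itself was lowest. Of the reads of both arms it made up 0.00861% (Wilson 95% interval 0.00152 to 0.0487), 0.0123% (0.00746 to 0.0203), 0 with up to 0.0534% allowed by 3 reads, and 0.260% (0.213 to 0.316). Its odds against miR-103 were 21.2-fold higher in the library labelled MCF-10A cell than in MDA-MB-231 cells (12.2 to 39.3). Against MCF-10A exosomes, with 3 reads set for 0 and the 98 taken as they stand, its level was at least 3.75-fold higher, and the lower limit of the exact 95% interval, which also counts the error of the 98, was 2.99. The antisense name miR-103-as (ucauagcccuguacaaugcugcu), matched to miR-103b of RefSeq and complementary to miR-103 at all 23 bases, had 0 reads in all 4 libraries. At the depth of MDA-MB-231 cells, where miR-103 took 1.66%, finding 0 leaves room for a share of 4.09e-05%.

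Other names that differ by 1 base were set beside the pair. Matched by name to RefSeq, 11 further pairs differed at 1 position (lengths within 1 base) and had at least 50 reads per 10000000 in every library. In the 3 libraries other than the one labelled MCF-10A cell, the log2 difference of miR-103 over miR-107 was 7.80, 7.35 and 7.45, a range of 0.45. The ranges of the 11 other pairs were 0.52 to 4.58 (median 1.84), so 0 of them were smaller. The smallest, 0.52 for miR-19a and miR-19b, lay close to 0.45. With 52 and 32 miR-107 reads in the exosomes, the order of these ranges was not resolved by counting. Some names had no match in RefSeq, so the set of pairs is not complete. With the library labelled MCF-10A cell the range of miR-103 and miR-107 became 6.77, and 1 other pair had a wider range. That pair was miR-100 and miR-99a, at 10.31, where miR-100 led by 6.75 to 8.88 in 3 libraries and their difference was −1.43 in the last. let-7a over let-7c, which differ at position 19, went from 3.93 to 6.22 in the 3 libraries to 2.14, and miR-27a over miR-27b, also at position 19, stayed between −0.73 and 1.11 in all 4. These pairs share members and libraries, and the values are a description.

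**Figure D4:**
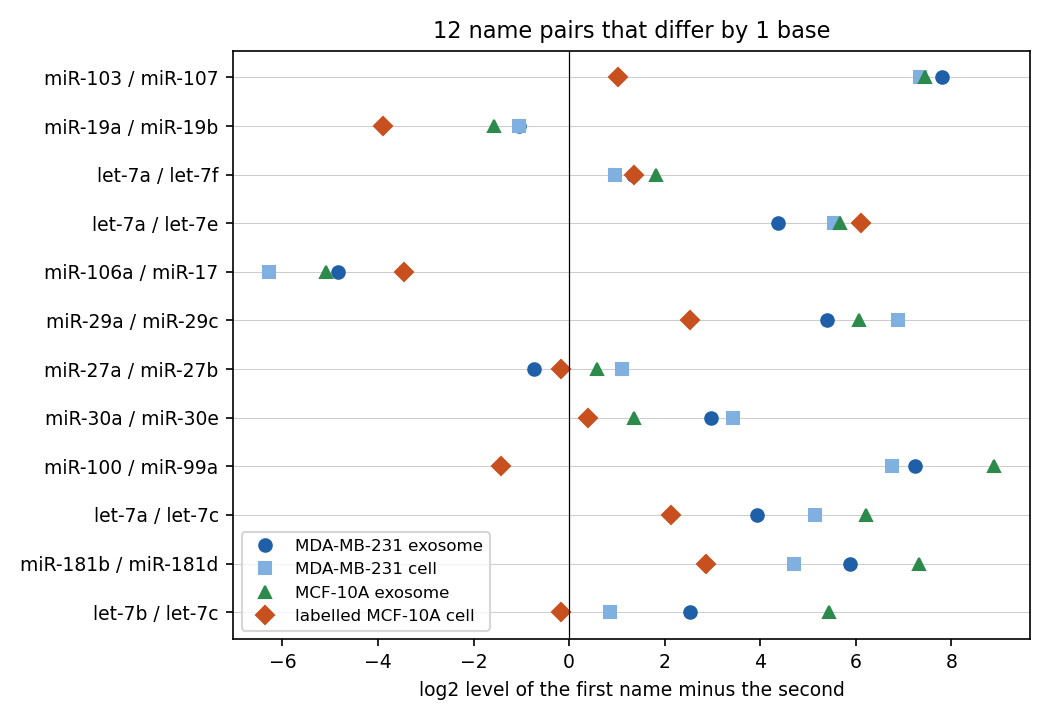
Log2 level of the first name minus the second (x axis) for 12 pairs of names that differ by 1 base, 1 symbol per library, ordered by their range over the 3 libraries other than the one labelled MCF-10A cell. miR-103 over miR-107 has the narrowest range over these 3 (7.35 to 7.80, a range of 0.45), close to the 0.52 of miR-19a over miR-19b. It falls to 1.03 in the library labelled MCF-10A cell.

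The miR-15/16 group, which restrains the cell cycle, carries a related seed moved by 1 base, so that AGCAGC stands at bases 2 to 7 and not at bases 1 to 6 as in the pair. Members are printed with bases 2 to 8 in capitals to show the shift.
miR-15a: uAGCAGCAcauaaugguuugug
miR-16: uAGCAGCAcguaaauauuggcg
miR-424: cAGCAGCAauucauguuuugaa
miR-503: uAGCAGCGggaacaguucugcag
Among the RefSeq names, 2 of 2370 (0.0844%) had AGCAGC at bases 1 to 6, and 9 (0.380%) at bases 2 to 7. Searches were on the mature strand alone. Of the 8 listed names of this group, miR-646 was at 0 in all libraries and 7 passed the minimum in each comparison.

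Between exosomes, 4 of these 7 were higher by 4-fold in MDA-MB-231, 0 lower and 3 within, with a median of 3.12 beside 0.59 over all names, where 29.3% were higher by 4-fold. Of those 4, miR-195 (8 against 0 reads) and miR-497 (7 against 0) rested on few reads, and miR-503 (12.18 against 7.01) and miR-424 (10.52 against 7.40) on more. miR-16, its most widely expressed member, stood at 12.42, 13.23, 11.84 and 16.21. miR-15a stood at 11.28, 12.96, 11.45 and 13.34, and miR-15b at 9.28, 11.56, 9.52 and 12.31. In both exosome libraries and in MDA-MB-231 cells miR-103 thus lay above every member of the group. The library labelled MCF-10A cell differed, as miR-424 (17.05) and miR-16 (16.21) lay above miR-103 there. Against that library, 4 of 7 were lower by 4-fold in MDA-MB-231 cells (median −2.98) and 6 of 7 in MCF-10A exosomes (median −4.37), beside 54.3% and 57.2% of all names and medians of −2.83 and −3.27. Within MDA-MB-231, 1 was higher in exosomes, 2 were lower and 4 within (median −0.81), beside 22.2% of all names higher and 13.4% lower.

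**Figure D5:**
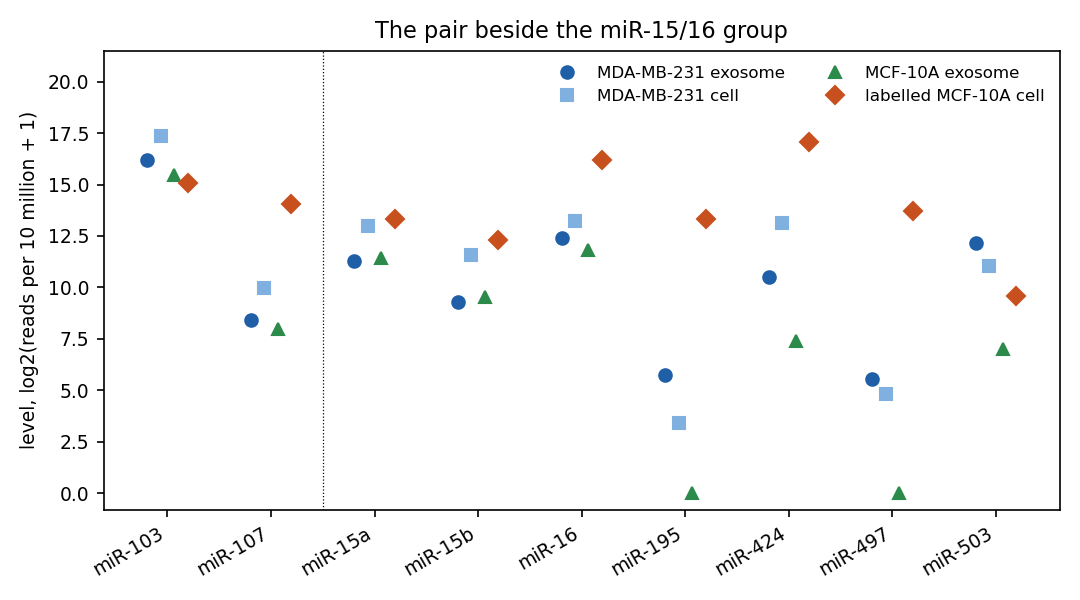
Level of miR-103 and miR-107 (left of the dotted line) and of 7 members of the miR-15/16 group in the 4 libraries, as log2 of reads per 10000000 plus 1. In the library labelled MCF-10A cell (diamonds) miR-107 and 6 of the 7 members reach their highest level, while miR-103 reaches its lowest.

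Other miRNAs known to repress DICER1 are those of the let-7 family, tumour suppressors that also silence RAS genes, and miR-630. Of this list of 10, miR-630 was at 0 in all libraries and the 9 let-7 names, miR-98 included, passed the minimum. Between exosomes 1 was higher by 4-fold in MDA-MB-231 (let-7i, 14.31 against 11.36), 0 lower and 8 within, with a median of 0.09, beside 29.3% of all names higher and 19.0% lower. let-7a stood at 19.65, 19.89, 20.85 and 17.94, let-7f at 18.32, 18.92, 19.04 and 16.59, and let-7b at 18.25, 15.59, 20.06 and 15.63. These names exceeded miR-103 in each exosome library, and in MDA-MB-231 cells let-7b (15.59) did not. Further members were let-7c at 15.72, 14.74, 14.63 and 15.80, let-7e at 15.28, 14.35, 15.19 and 11.84, and let-7g at 14.83, 15.89, 15.09 and 15.87. let-7d stood at 13.56, 14.15, 13.43 and 14.60, let-7i in the cell libraries at 14.30 and 15.74, and miR-98 at 11.76, 12.10, 10.37 and 12.38. In MDA-MB-231 cells against the library labelled MCF-10A cell, 2 of the 9 were higher by 4-fold, 0 lower and 7 within (median −0.04), beside 17.4% of all names higher, 54.3% lower and a median of −2.83. Within MDA-MB-231 1 was higher in exosomes and 8 within (median −0.24), and within MCF-10A 4 were higher, 2 lower and 3 within (median −0.78). The shares of all names were 22.2% higher and 13.4% lower within MDA-MB-231, and 15.4% and 57.2% within MCF-10A.

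The miR-200 family holds cells in an epithelial state by repressing the ZEB factors, and less of it has been reported where miR-103 and miR-107 are high. Between exosomes, all 5 members were lower by 4-fold in MDA-MB-231 (median −3.34), where 19.0% of all names were. There miR-103 was 0.76 higher, near the median of 0.59 over all names, and 0.0717 under upper-quartile scaling. miR-107 was 0.41 higher, with a counting interval that included no difference. In the cell comparison 4 of the family were lower and 1 within (median −3.37), beside 54.3% of all names lower and a median of −2.83. In that comparison miR-103 was at 2.27 and miR-107 at −4.05. A relation between the family and the pair was not tested. miR-200c stood at 9.78, 9.49, 18.52 and 15.38 and miR-141 at 6.81, 7.03, 15.33 and 14.58. miR-200b (8.99, 10.60, 12.33 and 13.97), miR-200a (8.75, 10.34, 11.32 and 12.49) and miR-429 (7.76, 9.80, 10.47 and 10.66) were also lower in both MDA-MB-231 libraries than in either MCF-10A library.

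Other miRNAs encoded in introns of protein-coding genes were taken as a further list of 50 names. Between exosomes 9 were higher by 4-fold in MDA-MB-231, 6 lower and 31 within (46 names past the minimum, median 0.68), and within MDA-MB-231 8 were higher in exosomes, 5 lower and 33 within (46 names, median 0.20). In MDA-MB-231 cells against the library labelled MCF-10A cell 4 were higher, 23 lower and 23 within (median −1.73), and in MCF-10A exosomes against it 4 were higher, 27 lower and 19 within (median −2.13). Of all names, 29.3% were higher and 19.0% lower between exosomes, 22.2% and 13.4% within MDA-MB-231, 17.4% and 54.3% in cells, and 15.4% and 57.2% within MCF-10A, so the list did not hold a larger share of lower names than the background in the comparisons with the library labelled MCF-10A cell. Those highest in mean level were miR-378 of PPARGC1B (16.39, 17.91, 18.26 and 15.10), miR-30e of NFYC (16.28, 16.37, 15.35 and 15.33), miR-93 of MCM7 (16.36, 16.28, 16.63 and 13.53) and miR-151-3p of PTK2 (16.39, 17.08, 14.90 and 14.27). Like miR-103, miR-151-3p had its highest level in MDA-MB-231 cells and its lowest in the library labelled MCF-10A cell. miR-378, also known for roles in energy metabolism, was instead highest in MCF-10A exosomes.

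miRNAs known to act on insulin or lipid metabolism formed a list of 15, led in mean level by let-7a, miR-378, miR-29a and miR-181a. Between exosomes 4 were higher by 4-fold in MDA-MB-231, 2 lower and 8 within (median 0.73), and within MDA-MB-231 5 were higher in exosomes, 1 lower and 8 within (median 0.76). The 4 were miR-122, miR-143, miR-370 (14 against 0 reads) and miR-181a. The 5 were miR-122, miR-143, miR-370, miR-335 (22 against 1 read) and miR-375 (7 against 2). Among them miR-122, miR-143 and miR-375 are also other-tissue names. Against the library labelled MCF-10A cell, 1 was higher in MDA-MB-231 cells, 8 lower and 6 within (median −4.83), and 2 were higher in MCF-10A exosomes, 10 lower and 3 within (median −3.17). The median of −4.83 was the value of miR-802, at 0 against 30 reads. The shares of all names just given stand beside these counts too, with 54.3% lower in cells and 57.2% within MCF-10A. miR-29a stood at 15.32, 15.89, 14.49 and 17.27 and miR-181a at 16.64, 15.14, 14.46 and 16.04. miR-33a and miR-33b, which lie in introns of the sterol regulators SREBF2 and SREBF1, stood at 7.67, 8.42, 8.25 and 10.01, and at 7.71, 7.10, 6.33 and 6.36.

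Of the 208 other names with at least 50 reads per 10000000 in all libraries, those whose pattern was most like a member's were found by the root mean square difference of levels over the 4 libraries, each name centred on its own mean. Nearest to miR-103 were miR-330-5p (0.134), miR-21* (0.193), miR-181a* (0.220), miR-30c-2* (0.290) and miR-598 (0.298), beside a median of 1.33 over all names. miR-330-5p, for example, stood at 8, 8.96, 7.40 and 7.01. Nearest to miR-107 were miR-331-3p (0.296), miR-374a (0.434), miR-34c-5p (0.664), miR-99a (0.705) and miR-16 (0.720), beside a median of 2.36. miR-331-3p stood at 6.19, 8.14, 5.83 and 11.36, and so was low in 3 libraries and high in the library labelled MCF-10A cell. The members were not near each other by this measure, at 2.82, which placed miR-107 at 188 of 208 from miR-103. With 4 libraries these likenesses are a description.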

How the data were processed

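The deposited log2 values of 1100 names per library were read as log2 of reads per 10000000 plus 1, a scale worked out from the values, because each library sums to close to 10000000 when converted back. Novoalign, edgeR and hg18 are named, per the submitters' processing notes, with no version or role; which miRBase release was used and how reads were assigned is not given in the sources used here. Whole reads were recovered from the step between low values: 40.1% to 65.7% of nonzero names were low enough to resolve single reads (rounding interval under 0.5 reads), and 100% of those were whole within it. Larger numbers are known to 0.347%. Recovery and intervals were tested on simulated data.

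Differences are those of the deposited values. A name entered with at least 10 reads per 10000000 in 1 library and was called at a log2 difference of 2. Ratios have exact conditional binomial 95% intervals and shares Wilson intervals (scipy 1.17.1, statsmodels 0.14.6). Alternatives were upper-quartile, TMM (30% and 5% trims) and median scaling, totals without the other-tissue names or miR-21, a pseudocount of 10, a 2-fold size and other minimums; the scalings of the pair sum were added after its values were seen.

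The members and lists were chosen with earlier results of these data known. Named miRNAs were the members in every library, the other names of their genes, the AGCAGC, DICER1 and miR-200 lists with 10 reads per 10000000 in 1 library, up to 4 of other lists by mean level, 3 rank neighbours on each side and the 5 most similar patterns; let-7c and let-7a, miR-27, miR-100 and miR-99a, and miR-33 were added after their values were seen.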

Additional observations from a re-analysis of the deposited data

Results flagged for a closer look

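The exosome-minus-cell difference of miR-103 had opposite signs in the lines, at −1.13 in MDA-MB-231 and 0.38 in MCF-10A. Over a total without the other-tissue names both were negative, at −1.09 and −0.65. The line difference of miR-107, MDA-MB-231 minus MCF-10A, had opposite signs in the fractions, at 0.41 in exosomes and −4.05 in cells. The counting interval of the exosome value included no difference. Under upper-quartile scaling both were negative, at −0.28 and −1.63. With 1 library in each group, neither contrast between the differences was tested, and both use the library labelled MCF-10A cell.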

How the results depend on the processing

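No paired analysis was possible because each group had 1 library, and none could be left out. The miR-107 share of the pair stayed within its interval in both other forms tried, and the ranks stayed within 1.5 times with identical names counted once. Log2 differences outside their counting interval are given in the order exosomes of the lines, cells of the lines, MDA-MB-231 exosome to cell and MCF-10A exosome to cell, first for miR-103. Upper-quartile scaling gave 0.0717, 4.69, −1.59 and 3.13, and for miR-107 −0.28, −1.63, −2.04 and −3.29. TMM scaling gave 0.48, 2.68, −1.26 and 0.58, and for miR-107 in cells −3.64. Median centring gave 0.57, 2.76, −0.86 and 1.25, and for miR-107 −3.56 in cells and −5.16 within MCF-10A. It did not remove the median difference over all names past the minimum, which was 0.40, −2.34, 0.18 and −2.395 after it. The total without other-tissue names gave 1.24, −1.09 and −0.65 for the last 3 of miR-103, and −5.08 in cells and −7.07 within MCF-10A for miR-107. The total without miR-21 gave 0.92, 2.90, −1.19 and 0.79, and −3.42 for miR-107 in cells. With MCF-10A exosomes in place of the library labelled MCF-10A cell, miR-103 was at 1.89 and miR-107 reversed to 1.99. The difference between lines of the exosome-to-cell fold of miR-103 was −4.72 (upper quartile), −1.83 (TMM), −2.12 (median), −0.44 (without other-tissue names) and −1.98 (without miR-21), and that of miR-107 was 1.25 (upper quartile) and 5.53 (without other-tissue names). Counts of names 4-fold higher or lower moved by over 1.5 times as follows. A minimum of 100 gave 78 higher and 46 lower between exosomes, 61 and 31 within MDA-MB-231, and 59 higher within MCF-10A. Upper-quartile scaling gave 227 higher in cells, and 218 higher and 240 lower within MCF-10A. The total without other-tissue names gave 66 higher in cells and 66 higher within MCF-10A. Within MDA-MB-231, lower names numbered 38 with a pseudocount of 10, 149 at 2-fold and 103 with no minimum. The main counts were 148 and 96 between exosomes, 116 and 361 in cells, 111 and 67 within MDA-MB-231, and 102 and 378 within MCF-10A. The cause of these changes was not tested. Depth limits miR-107 in exosomes, with 52 and 32 reads.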

Other observations

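miR-18a and miR-18b, which differ at position 20, fell under the minimum of 50 reads per 10000000 in at least 1 library and were left out of the pairs above. The log2 level of miR-18a minus miR-18b was 8.14 and 9.45 in the exosomes and cells of MDA-MB-231, 7.34 in MCF-10A exosomes and 0.91 in the last library, the one labelled MCF-10A cell. As with miR-103 and miR-107, the first name led by far more in 3 libraries than in the last.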
